A study of Mus musculus with 18 samples.

Results

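The genes described here encode the translation initiation and elongation factors, measured in mouse splenic B cells at rest and after LPS. They were taken by name: every gene of the table whose NCBI mouse gene ID belongs to a protein-coding gene with a symbol starting with Eif or Eef, without the Eif2ak kinases. This rule uses no measured value and gave 66 of the 16545 genes in the table. It also takes in some genes that are named for a factor without being one, such as the methyltransferases that modify elongation factors. By role, 5 belong to eIF1 and eIF1A, 6 to eIF2 and other carriers of initiator tRNA, 5 to eIF2B, 14 to eIF3 and 13 to eIF4F with its helicase cofactors. Another 4 encode inhibitors that bind eIF4E, 3 act in subunit joining or are Eif6, 2 encode eIF5A, 6 belong to eEF1, 3 are Eef2, its kinase and the selenocysteine factor Eefsec, and 5 are methyltransferases.

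Purified B cells of the spleen were cultured with LPS, the endotoxin of Gram-negative bacteria that TLR4 recognises, and RNA was sequenced on day 0 (D0), day 1 (D1) and day 2 (D2). Zbtb24 B-CKO mice (BKO) were Zbtb24 loxp/loxp, with loxp sites around exon 2 of Zbtb24, and carried a Cre active in B cells, which deletes the gene there. The labels call the controls CON without an allele. The methods give controls as Zbtb24 +/+ littermates with the same Cre unless stated otherwise, on a C57BL/6 background. Each of the 6 groups of genotype and day held 3 libraries, each from 1 mouse. The age and sex of these mice and the dose of LPS are not given in the sources used here. Whether libraries with the same number on different days came from 1 mouse is not stated either.

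Initiation factors bring the small ribosomal subunit, the initiator tRNA and the mRNA together. eIF2 carries the tRNA and is recharged with GTP by eIF2B, eIF3 is the scaffold on the small subunit, and eIF4F (cap-binding eIF4E, scaffold eIF4G and helicase eIF4A) selects capped mRNAs. Elongation factors then deliver aminoacyl-tRNAs (eEF1A) and move the ribosome along the mRNA (eEF2). B cells leaving the resting state grow and divide, which raises their need for protein synthesis, and the eIF4E-binding proteins and the kinase of eEF2 are known targets of mTORC1 signalling.

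Values are FPKM, fragment counts scaled to transcript length and to the total of the library. They are levels relative to the library, so a change in RNA per cell is not seen. In bulk samples, fewer cells of a type and less RNA per cell cannot be told apart. Zbtb24 itself lay between 37.05 and 49.6 FPKM in the CON libraries at D0 and between 10.5 and 14.3 in the BKO libraries, and between 15.7 and 18.8 against 10.4 to 11.7 at D1. The libraries did not overlap on any day, but Zbtb24 itself was not called at D0, D1 or D2 (limma, log2 differences of -1.78, -0.64 and -0.50, adjusted p = 0.12, 0.059 and 0.27), so this test can miss a difference of that size. Reads of the exons that were not deleted count here too. The relative depth of the libraries, estimated from single-fragment steps, was 0.885 to 0.926 at D0 and 0.975 to 1.07 later. The 7 B cell markers made up 0.906% to 1.17% of the summed FPKM at D0 and 0.397% to 0.496% after LPS. None of the 7 was at 0 in any group. The 7 T cell markers made up 0.00442% to 0.0062% at D0 and 0.00169% to 0.00279% after LPS. In CON, the 4 NK markers went from between 0.00148% and 0.003% at D0 to at most 0.000107% at D1 and 0.000258% at D2, and the 4 plasma cell markers from between 0.0284% and 0.0348% to 0.0138% to 0.0176% at D1 and 0.0266% to 0.0463% at D2. The plasma cell markers did not move together at D1 in CON: the means of Jchain and Sdc1 were lower than at D0 (17.8 against 89.6 and 1.70 against 5.69 FPKM), and those of Prdm1 and Xbp1 were higher (7.01 against 2.74 and 56.3 against 44.3 FPKM). Over both genotypes, the 6 erythroid markers made up 0.00256% to 0.015% at D0 and 0.00143% to 0.00289% after LPS. The 8 myeloid markers made up 0.000836% to 0.00216% at D0 and 0.000633% to 0.00131% after LPS. These lists did not move together either. The CON mean of Hbb-bt was 2.86 FPKM at D0, 7.58 at D1 and 9.31 at D2, and that of Itgam 0.977, 2.42 and 4.95. Both genes also rose in BKO. The means of Hba-a1, Hba-a2, Hbb-bs and Alas2 were lower after LPS in both genotypes. So were those of Adgre1, Cd14, Csf1r, Lyz2, S100a8 and S100a9, while Fcgr3 was higher at D2 in CON. The part of these shifts in the results below was not tested.

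The translation factor genes rose as a group after 1 day of LPS and partly came back on the second day. In CON cells, 50 of the 66 genes rose from D0 to D1, 7 fell and 9 did not pass the test (limma on log2(FPKM + 1), adjusted p under 0.05). Over all 15531 genes tested, 26.7% rose and 30.7% fell. The median change of the 66 genes was 0.94 on the log2 scale, against -0.02 over all genes. From D1 to D2, 10 of the 66 rose and 36 fell, where 20.1% of all genes rose and 24.8% fell, and the median change was -0.16. From D0 to D2, 50 rose and 6 fell, against 26.5% and 30.3% of all genes, with a median of 0.70. These comparisons share libraries and are not independent of each other. The pattern by gene was most often a rise followed by a partial fall, which held for 31 genes. A further 13 rose and then did not change detectably, and 6 rose on both days. The share of all genes with each of these patterns is not given here. Both steps use the same D1 libraries, so the pattern counts are a description.

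The 66 genes together made up a larger part of the library after LPS than before it. Their share of the summed FPKM in CON was 2.63%, 2.72% and 3.07% at D0, 3.67%, 3.75% and 3.73% at D1 and 3.65%, 3.55% and 3.47% at D2. The D0 libraries were lower than all others, without overlap, and varied most, and the D2 libraries were again below those of D1 (exact permutation test, p = 0.1 for both steps, the smallest that 3 against 3 can give). Much of this share was Eef1a1 alone, at 1.23% ± 0.12 of the summed FPKM at D0 and 1.42% ± 0.004 at D1 (SD, n = 3).

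**Figure D1:**
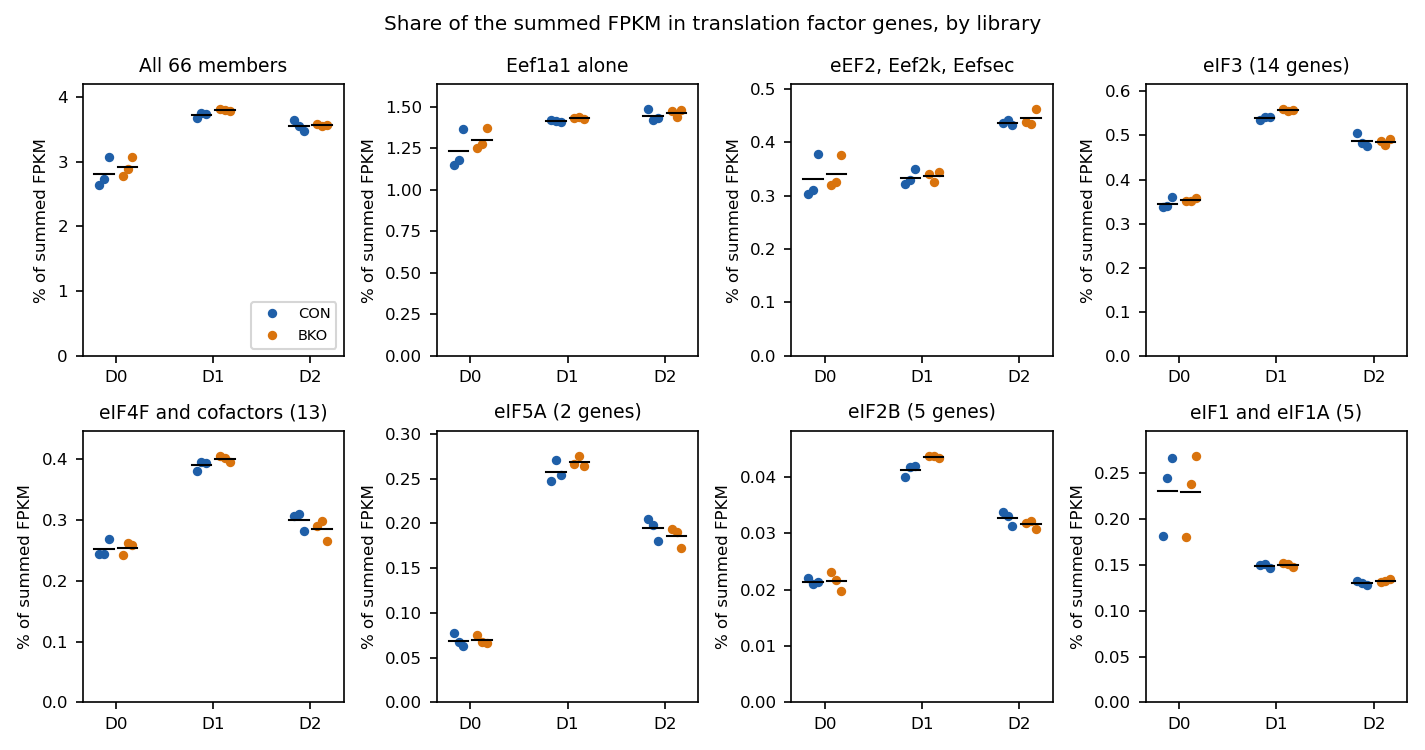
Percent of the summed FPKM in all 66 genes, in Eef1a1 and in 6 role groups (y axes, from 0) by day (x axis), for CON (blue) and BKO (orange), with 1 point per library and the group mean as a black bar. The eIF5A panel rises from a mean of 0.069% to 0.257% in CON at D1, whereas the panel of eIF1 and eIF1A falls from 0.231% to 0.149%.

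Among the factors that scan for the start codon, the members moved in opposite directions. Eif1, which guards start codon choice and was the most abundant of the 5 genes, was at 717.7, 1035 and 1095 FPKM in CON at D0, at 454.3, 466.9 and 445.0 at D1 and at 430.9, 402.7 and 419.8 at D2. All D0 values lay above all later ones, and Eif1 fell by 1.03 on the log2 scale to D1 (limma, SE 0.16, adjusted p = 0.0019). The X-linked Eif1ax, which encodes the partner factor eIF1A, was at 43.9, 37.3 and 33.2 FPKM at D0 and at 163.6, 165.1 and 158.2 at D1. It rose by 2.07 (limma, SE 0.10, adjusted p = 1.6e-05). Its near copy Eif1a and the related Eif1ad and Eif1b also rose, by 1.36, 1.07 and 0.52. The rise of Eif1b was not called after rescaling to TPM, without D0 library 2 or without any 1 of the D1 libraries. Eif1b, a close paralogue of Eif1, went from between 32.9 and 48.5 FPKM at D0 to between 60.2 and 64.9 at D2, so that Eif1 made up 95.8% ± 1.9 of the pair at D0 and 87.1% ± 0.59 at D2 (SD, n = 3). Reads from such close copies can be shared between them by the authors' counting, which makes their split uncertain.

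The 3 subunits of eIF2 rose by unequal amounts. Eif2s1, the alpha subunit that stress kinases phosphorylate, was at 23.8, 20.3 and 19.7 FPKM in CON at D0, at 93.1, 97.7 and 92.1 at D1 and at 66.8, 63.1 and 59.8 at D2. It rose by 2.10 to D1 (limma, SE 0.081, adjusted p = 8.6e-06). Eif2s2, the beta subunit, was the most abundant gene of this group over the 18 libraries, though Eif2s3y had the higher mean at D0. Eif2s2 was at 43.1, 44.4 and 52.6 FPKM at D0, at 129.6, 135.8 and 126.4 at D1 and at 114.2, 103.7 and 104.7 at D2. Its first rise was 1.47. The gamma subunit is encoded by a gene on X and one on Y. Eif2s3x was at 45.7, 40.7 and 50.7 FPKM at D0 and at 109.9, 115.6 and 112.0 at D1, a rise of 1.29. Eif2s3y was at 51.0, 45.2 and 53.6 at D0 and at 40.0, 42.4 and 41.3 at D1, a fall of 0.27 (limma, adjusted p = 0.022), which was no longer called with replicate blocking, with median-ratio scaling, in 1 fit of all 18 libraries or without any 1 of the 3 D1 libraries. The Y copy thus made up 52.3% ± 0.75 of the pair at D0 and 26.8% ± 0.13 at D1 (SD, n = 3). In BKO, the library with number 3 had the lowest Eif2s3y values, 27.4 FPKM at D1 and 31.1 at D2. The alternative carriers Eif2a and Eif2d rose by 1.01 and 0.77, and Eif2a went on rising to D2 by 0.21.

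All 5 genes of eIF2B, the exchange factor of eIF2, rose at D1 in CON, where 26.7% of all genes did. The rises ranged from 0.40 (Eif2b2) to 1.94 (Eif2b3). Eif2b5, the catalytic subunit, was the most abundant of the 5 over the 18 libraries, though Eif2b2 was higher at D0 (mean of 32.5 FPKM in CON). Eif2b5 was at 25.3, 25.5 and 24.9 FPKM in CON at D0 and at 57.4, 60.6 and 59.2 at D1. Eif2b3 was at 7.13, 6.74 and 6.12 at D0, at 27.7, 29.9 and 27.6 at D1 and at 16.4, 16.0 and 14.4 at D2. Eif2b3 thus started as the scarcest subunit, rose most (limma, SE 0.080, adjusted p = 9.8e-06) and fell most from D1 to D2, by 0.83 (limma, adjusted p = 9.2e-05). Eif2b2 changed least, so that the FPKM ratio of Eif2b3 to Eif2b2 was 0.206 ± 0.023 at D0, 0.658 ± 0.024 at D1 and 0.363 ± 0.022 at D2 (SD, n = 3). The groups did not overlap between days.

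The eIF3 subunit genes came to nearly even levels at D1 and spread again at D2. Of the 14 genes, 13 rose at D1 in CON and 1 fell, where 26.7% of all genes rose and 30.7% fell. Among the 12 subunits other than Eif3j, the highest FPKM was 4.07 ± 0.29 times the lowest at D0, 1.73 ± 0.10 times at D1 and 3.11 ± 0.49 times at D2 in CON (SD, n = 3; exact permutation p = 0.1 for both steps, the smallest possible). Levels per length do not give subunit numbers in the complex, since translation and protein stability are not measured.

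**Figure D2:**
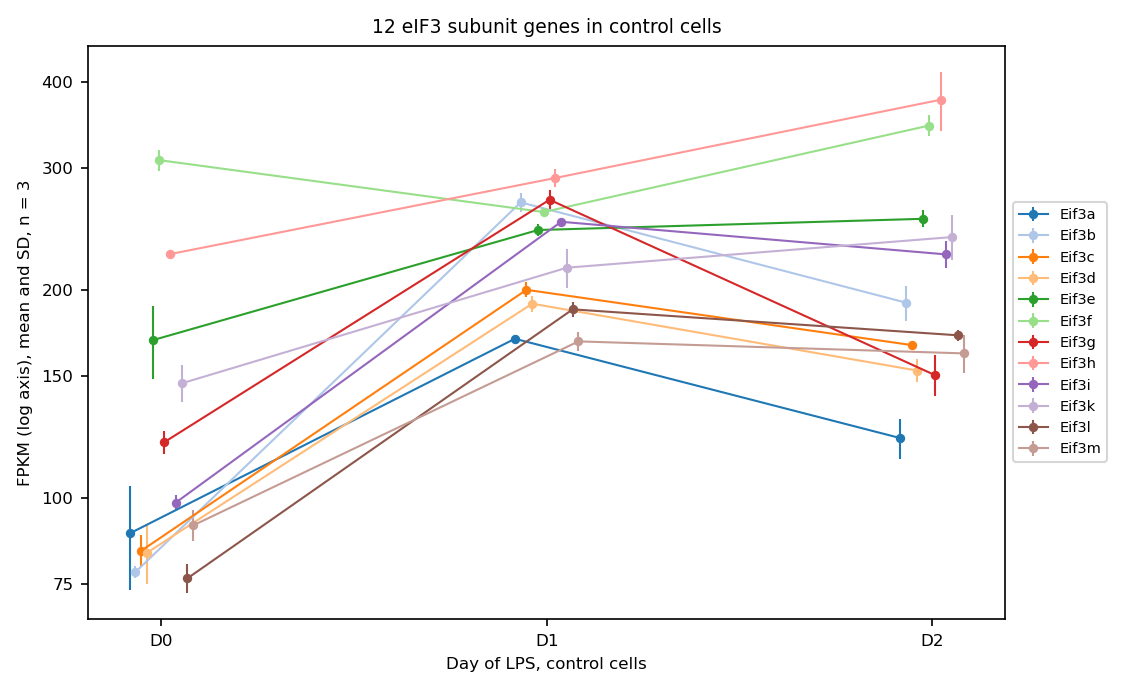
Mean FPKM (log axis, error bars SD, n = 3) of 12 eIF3 subunit genes in CON libraries by day. The lines run together at D1 and apart at D2, where Eif3h and Eif3f are highest and Eif3a is lowest.

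Eif3f, one of the MPN-domain subunits and the most abundant eIF3 gene over the 18 libraries, was the subunit that fell. It was at 299.0, 305.4 and 320.0 FPKM in CON at D0, at 257.4, 261.7 and 258.1 at D1 and at 356.7, 333.2 and 347.1 at D2. The D1 values were below all others, with a fall of 0.25 (limma, SE 0.049, adjusted p = 0.0054) and a return of 0.41 (limma, adjusted p = 0.00018). The fall at D1 was not called after scaling by the median ratio. Eif3b, a core scaffold subunit, was at 79.7, 77.3 and 77.1 FPKM at D0 and at 258.3, 273.2 and 271.3 at D1, and its rise of 1.76 was the largest of the group. Eif3g, which binds RNA, was at 124.4, 121.1 and 115.5 FPKM at D0, at 262.5, 280.0 and 267.3 at D1 and at 162.1, 145.9 and 143.4 at D2. Its drop of 0.84 from D1 to D2 was the largest among the eIF3 genes (limma, SE 0.054, adjusted p = 7.1e-05). Eif3h, the other MPN-domain subunit, rose on both days, by 0.36 and 0.37. Eif3j1 rose by 1.52, from between 27.8 and 35.5 FPKM, while its near copy Eif3j2 stayed between 0 and 3.26 FPKM in all 18 libraries. Eif3j2 was called as risen at D1, but not with the replicate block, without a filter or without D0 library 2 or 3 or D1 library 3. With reads that could be shared between the copies, its values are uncertain.

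In eIF4F, 8 of the 13 genes rose at D1 in CON, 4 fell and 1 did not pass the test. Over all genes, 26.7% rose and 30.7% fell. The paralogues within eIF4F moved apart. The helicase gene Eif4a1 was at 200.6, 218.0 and 275.5 FPKM in CON at D0, at 734.6, 777.3 and 747.2 at D1 and at 543.4, 514.5 and 466.9 at D2. Its paralogue Eif4a2 was at 304.8, 299.7 and 267.4 at D0, at 145.4, 139.9 and 136.2 at D1 and at 102.9, 111.3 and 102.2 at D2. Eif4a1 thus rose by 1.71 (limma, SE 0.12, adjusted p = 6.1e-05), whereas Eif4a2 fell by 1.04 (limma, SE 0.067, adjusted p = 4.3e-05). Eif4a1 made up 44.2% ± 5.8 of the pair at D0, 84.3% ± 0.69 at D1 and 82.8% ± 1.1 at D2 (SD, n = 3), and the D0 libraries did not overlap with the others. Eif4a3, the helicase of the exon junction complex, rose by 0.90. Eif4a3l1 was at most 0.06 FPKM in all 18 libraries.

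The cap-binding gene Eif4e was at 13.9, 12.8 and 13.9 FPKM in CON at D0, at 46.1, 46.7 and 42.0 at D1 and at 35.0, 33.0 and 29.1 at D2. It rose by 1.66 (limma, SE 0.070, adjusted p = 1e-05). Eif4e2, a cap-binding repressor, was at 30.8, 34.4 and 40.7 FPKM at D0 and at 44.4, 47.6 and 47.0 at D1. Eif4e3 went the other way, at 8.67, 6.15 and 7.59 at D0, 5.07, 5.43 and 5.23 at D1 and 8.85, 8.02 and 9.20 at D2. Eif4e3 fell by 0.43 (limma, SE 0.13, adjusted p = 0.029) and then rose by 0.63 (limma, adjusted p = 0.00037). The fall was not called with the replicate block, without D0 library 3 or without any 1 of the D1 libraries. Eif4e was therefore 24.1% ± 1.8 of the 3 genes at D0, 46.5% ± 1.9 at D1 and 35.4% ± 1.0 at D2 (SD, n = 3). Eif4e1b, known from oocytes, was called as fallen at D1 but stayed at or below 0.54 FPKM.

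Among the scaffolds, Eif4g1 was at 89.9, 80.5 and 81.9 FPKM in CON at D0, at 207.4, 214.7 and 215.3 at D1 and at 153.5, 161.0 and 149.1 at D2, a first rise of 1.33. Eif4g3 was at 52.5, 52.0 and 52.9 at D0, at 40.1, 37.2 and 37.8 at D1 and at 24.9, 27.9 and 26.6 at D2. It fell on both days, by 0.44 and 0.52 (limma, adjusted p = 0.00051 and 0.0003). Eif4g2, a scaffold that does not bind eIF4E, rose by 0.53. The helicase cofactors Eif4h and Eif4b rose by 1.30 and 0.56, and Eif4b rose by a further 0.14 to D2 in CON, a call that was lost after rescaling to TPM.

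The inhibitors that bind eIF4E did not move as 1 group. Eif4ebp1 was at 22.5, 17.4 and 13.9 FPKM in CON at D0, at 38.0, 46.1 and 40.3 at D1 and at 52.5, 54.6 and 55.1 at D2. It rose by 1.19 (limma, SE 0.17, adjusted p = 0.0014) and again by 0.38 (limma, adjusted p = 0.0042), the second rise not being called in 1 fit of all 18 libraries. Eif4ebp2, the most abundant of the 3 over the 18 libraries, was at 78.7, 77.9 and 75.9 FPKM at D0 and at 77.5, 81.6 and 79.9 at D1. Its difference of 0.04 did not pass the test (limma, adjusted p = 0.52) and turned to -0.13 after rescaling to TPM. No other comparison of Eif4ebp2 between days was called, but alternatives called it from D0 to D2 in CON (with TPM) and, in BKO, from D0 to D1 (without D0 library 2) and from D1 to D2 (with the 1 FPKM filter, with or without the replicate block, or without D2 library 2). Eif4ebp3 was at 14.5, 12.3 and 11.9 at D0 and at 9.05, 11.1 and 11.3 at D1 (limma, adjusted p = 0.088). It was called as fallen in CON after rescaling to TPM and in 1 fit of all 18 libraries, and in BKO as it stands. Eif4ebp2 made up 71.7% ± 3.4 of the 3 genes at D0 and 54.3% ± 1.5 at D2 (SD, n = 3). The FPKM ratio of Eif4e to the sum of the 3 was 0.125 ± 0.010 at D0, 0.342 ± 0.026 at D1 and 0.233 ± 0.019 at D2. Eif4enif1, which shuttles eIF4E, rose by 0.39, a call lost after rescaling to TPM or without any 1 of the D1 libraries.

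**Figure D3:**
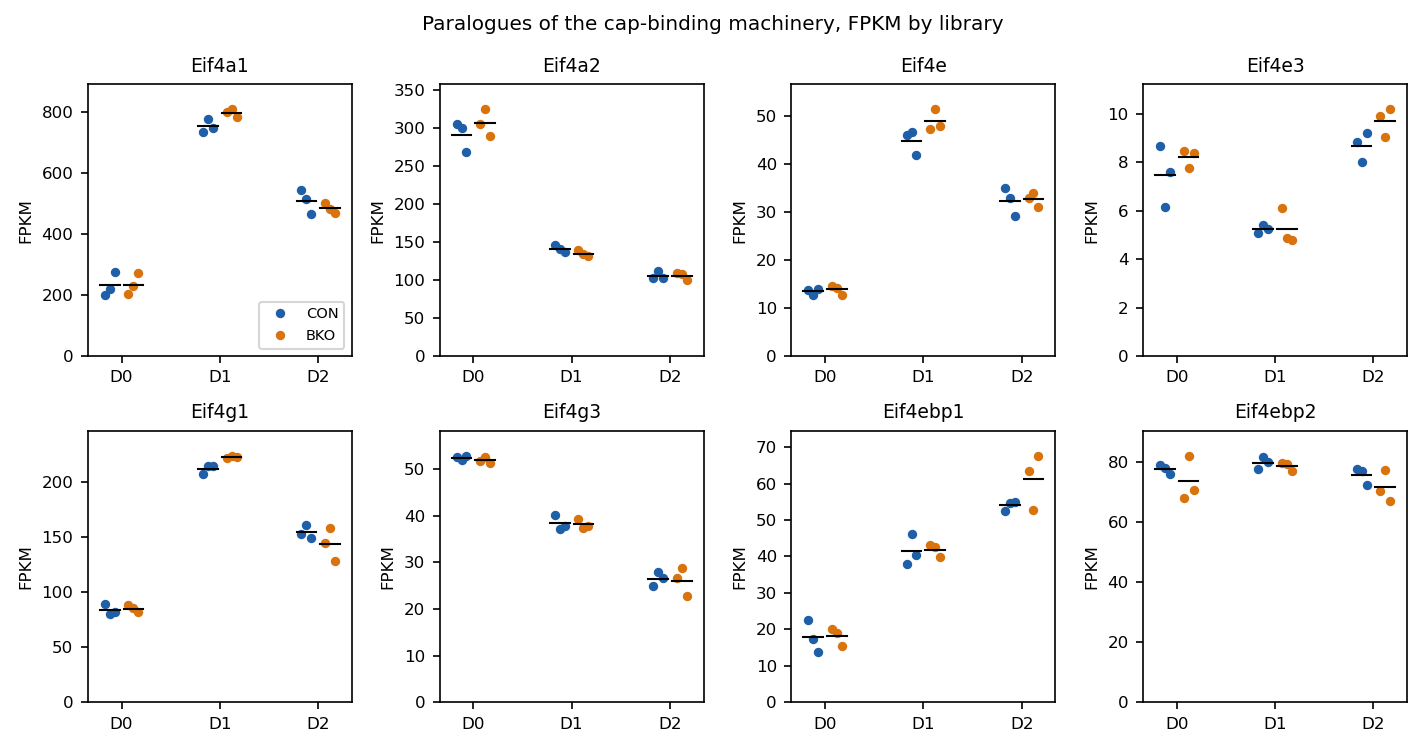
FPKM (y axes, from 0) of 8 genes of the cap-binding machinery by day, with 1 point per library (CON blue, BKO orange) and the group mean as a black bar. Eif4a1, Eif4e and Eif4g1 are highest at D1, Eif4a2 and Eif4g3 are lower on each later day, and Eif4ebp1 is higher on each later day, while Eif4ebp2 stays near its D0 mean at D1 in CON.

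Of the factors for subunit joining, Eif5b rose by 0.96, and Eif6, which keeps large subunits apart from small ones, rose by 1.86 from 42.8, 33.2 and 25.1 FPKM at D0 to 117.7, 125.2 and 122.8 at D1. Eif5, the activator of GTP hydrolysis by eIF2, was the most abundant of the 3 over the 18 libraries. At D2 in BKO, Eif6 had the higher mean (103.5 against 98.4 FPKM). In CON, Eif5 was at 134.9, 176.6 and 263.7 FPKM at D0, at 136.6, 137.2 and 132.2 at D1 and at 104.7, 104.1 and 100.1 at D2. Its D0 and D1 values overlapped, with no call at D1 (limma, adjusted p = 0.15) except without D0 library 1, and it fell by 0.39 from D1 to D2 (limma, SE 0.031, adjusted p = 0.00014), though not in 1 fit of all 18 libraries.

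Eif5a, the factor that carries hypusine and relieves stalled ribosomes, was at 362.1, 312.5 and 281.6 FPKM in CON at D0, at 1287, 1416 and 1307 at D1 and at 1104, 1044 and 968.8 at D2. Its mean at D1 was 4.19 times that at D0 (limma, log2 change 2.07, SE 0.10, adjusted p = 1.7e-05). Its paralogue Eif5a2 was at 1.65, 1.57 and 2.15 FPKM at D0 and at 2.58, 2.84 and 2.87 at D1, without overlap, a rise of 0.44 (limma, adjusted p = 0.014) that was not called after rescaling to TPM or without D1 library 2 or 3. Both genes rose, but the level of Eif5a2 stayed low, so that Eif5a made up over 99% of the pair, with a mean of 99.4% at D0 and 99.8% at D1.

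Eef1a1, which delivers aminoacyl-tRNA to the ribosome, was the most abundant gene of the whole table over the 18 libraries. It was at 5390.1, 5513 and 6195 FPKM in CON at D0, at 7390.4, 7429 and 7266 at D1 and at 8036, 7483 and 7712 at D2. Its D0 values lay below all later ones, and it rose by 0.37 (limma, SE 0.10, adjusted p = 0.02). After rescaling to TPM the rise was 0.21 and was not called (limma, adjusted p = 0.13), nor was it after median-ratio scaling. Without D0 library 1 it was 0.33 (limma, adjusted p = 0.075), and the call was also lost without D0 library 2, D1 library 1 or D1 library 2. Eef1a2, its paralogue of muscle and nerve, was at most 0.06 FPKM. The exchange factors for eEF1A rose more than Eef1a1 did in these units: Eef1d by 1.42, Eef1g by 1.28 and Eef1b2 by 0.82. Eef1e1, a scaffold of the aminoacyl-tRNA synthetase complex that shares the family name, had the largest rise of all 66 genes, 2.10 (limma, SE 0.10, adjusted p = 1.7e-05). It was at 22.7, 18.3 and 18.04 FPKM at D0, at 85.8, 94.3 and 82.2 at D1 and at 52.4, 44.8 and 40.7 at D2, and its fall of 0.92 to D2 was also the largest.

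Eef2 kept another time course. It was at 1401, 1442 and 1694 FPKM in CON at D0, at 1653, 1696 and 1774 at D1 and at 2335, 2306 and 2312 at D2. The D0 and D1 libraries overlapped (limma, log2 change 0.18, SE 0.094, adjusted p = 0.15), and the rise came from D1 to D2, by 0.44 (limma, SE 0.058, adjusted p = 0.0011). Without the CON library number 3 of D0, the first step was called as well (limma, log2 change 0.26, adjusted p = 0.014). It was also called with the replicate block and the 1 FPKM filter together. Eef2k, the kinase that inhibits eEF2, stayed between 2.77 and 3.71 FPKM on all days in CON. Eefsec, which delivers selenocysteine, was at 12.97, 11.99 and 12.46 FPKM at D0, at 22.8, 23.8 and 23.1 at D1 and at 18.86, 18.65 and 17.95 at D2, a rise of 0.85 and a fall of 0.31. Of the methyltransferases, Eef1akmt1 was at 7.04, 4.20 and 2.67 FPKM at D0 and at 21.3, 21.0 and 19.9 at D1, a rise of 2.02. Eef1aknmt rose by 1.72 and fell by 0.68. Eef1akmt2 rose by 0.98 at D1, and its fall of 0.16 at D2 was called but not with median-ratio scaling, 1 fit of all 18 libraries, the replicate block or without D2 library 1 or 3 or any 1 of the D1 libraries. Eef2kmt fell by 0.38 at D2. At D1 it was called as risen in BKO, though not with TPM or without D1 library 2, and in CON only with median-ratio scaling or without D0 library 1. Eef1akmt3 was called as risen in CON at D2 but stayed at or below 0.76 FPKM. That call was lost without a filter, without D2 library 1 or without any 1 of the D1 libraries.

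**Figure D4:**
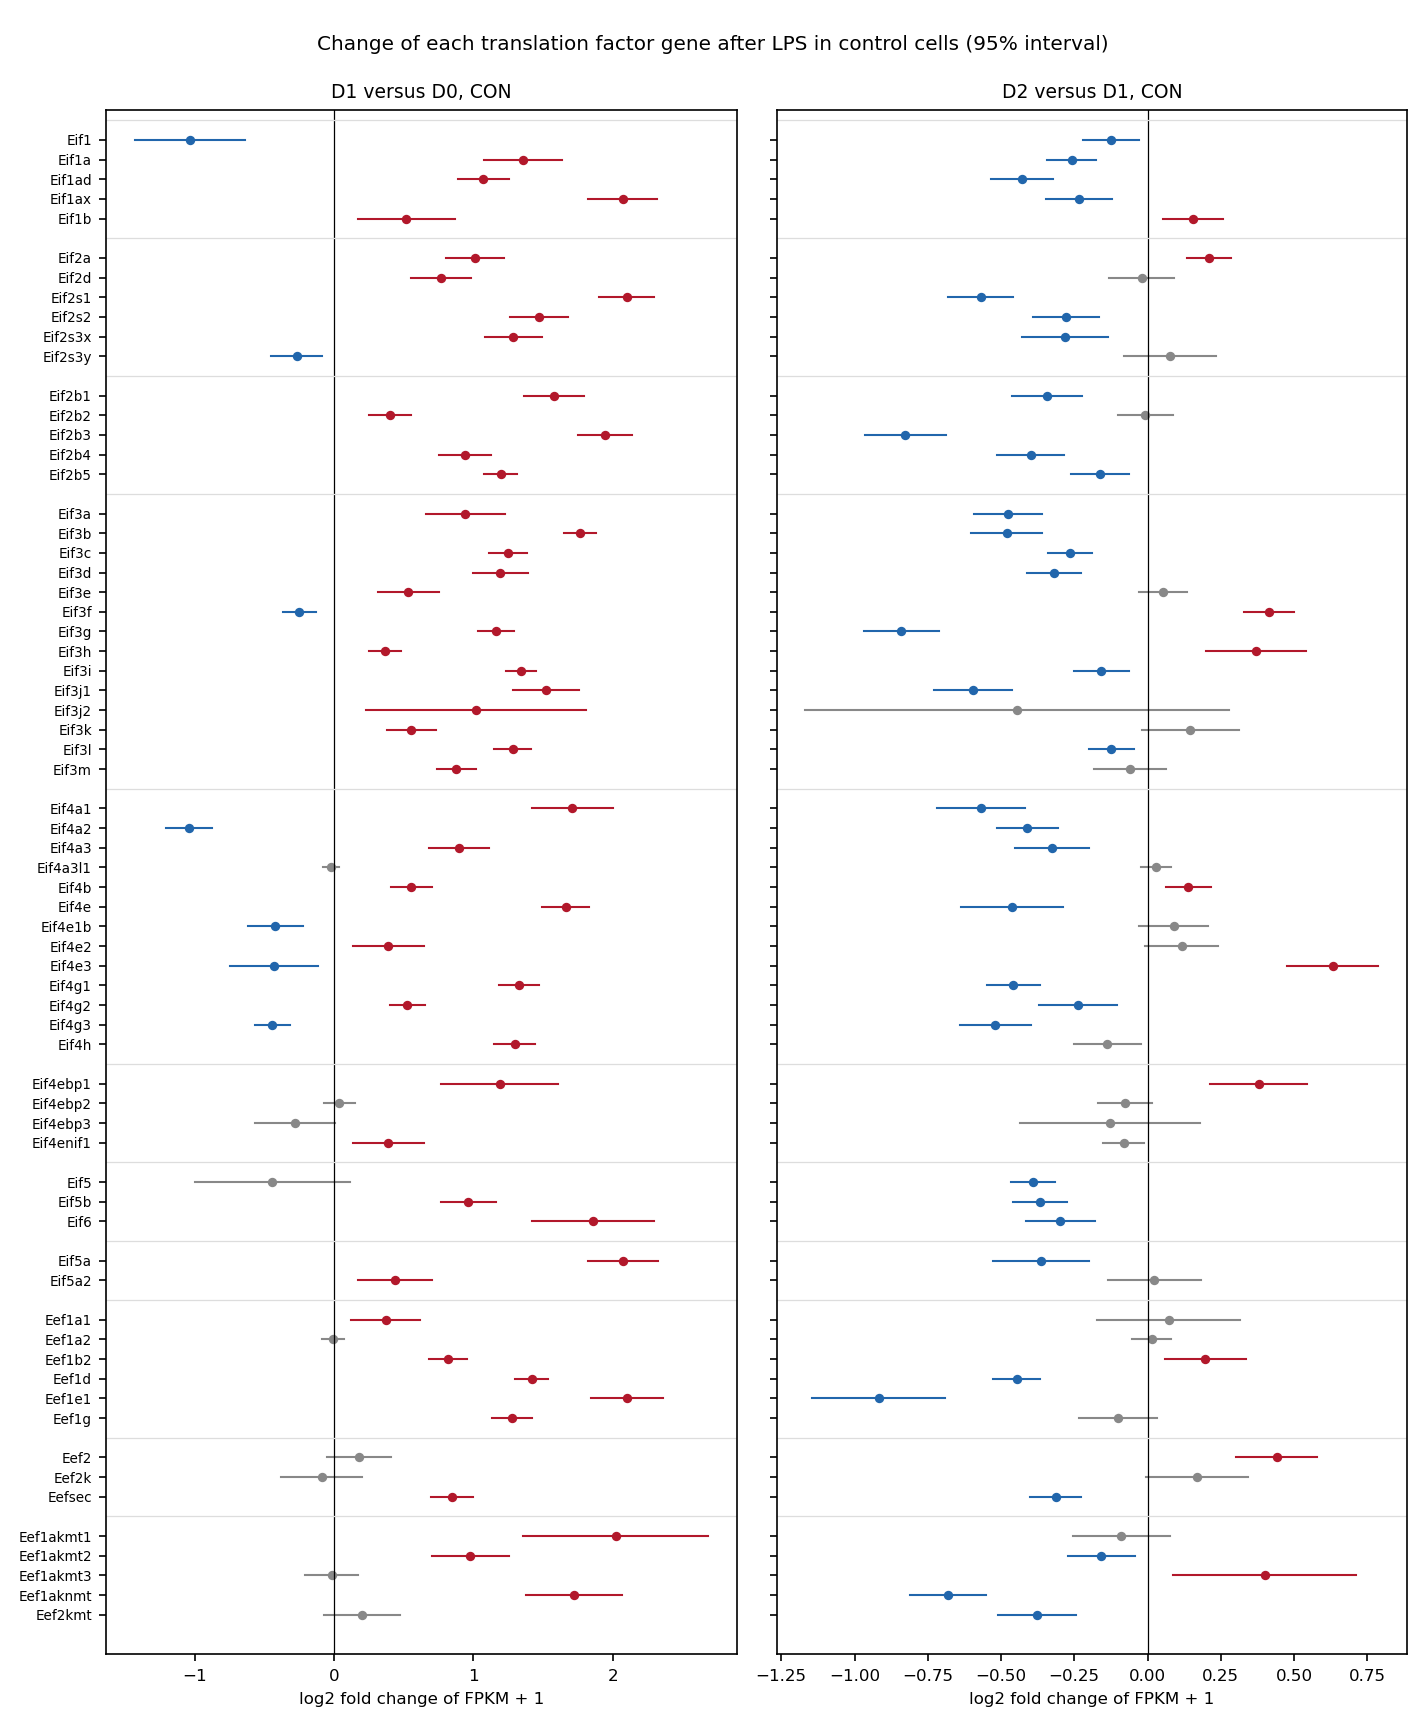
Log2 fold change of FPKM + 1 with its 95% interval (x axes) for each of the 66 genes in CON, from D0 to D1 on the left and from D1 to D2 on the right, in role groups split by grey lines. Red marks a called rise, blue a called fall and grey no call (limma, adjusted p under 0.05); 50 genes are red on the left and 36 are blue on the right.

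Promoter sequence was looked at for the E-box CACGTG, the site that MYC and its partners are known to bind, and which reads the same on both strands. RefSeq promoters of GRCm38.p6, from 250 bases before to 50 after an annotated start, were at hand for 50 of the 66 genes. At least 1 CACGTG was found for 13 of the 50 (26.0%) and for 10.5% of the 13151 genes of the table with such a sequence. Of the 13 genes with the motif, 10 rose at D1 in CON and 1 fell, and of the 37 without it, 28 rose and 4 fell. From D1 to D2, 3 of the 13 rose and 6 fell, and 3 of the 37 rose and 24 fell. Over all genes tested in CON, 26.7% rose and 30.7% fell at D1, and 20.1% rose and 24.8% fell from D1 to D2. These counts are a description, and a match says nothing of binding in these cells. The stretches below show where it lies for the 4 genes of eIF4F and its cofactors that hold it (Eif4a1, Eif4e, Eif4g1, Eif4h), for Eif5a with the largest rise of the 13, for Eef2 with its late rise and for Eif3f, which fell. The other 6 of the 13 were Eef1aknmt, Eef2k, Eif1b, Eif3a, Eif3k and Eif5a2. Each gives 54 bases in the direction of the gene, with the motif in capitals. The motif starts 189 bases before the start of Eif4a1 (chr11:69672583-69672636, minus strand), 64 before one of the starts of Eif4e (chr3:138527180-138527233, plus strand) and 54 before that of Eif4g1 (chr16:20672649-20672702, plus strand). It starts 96 bases before Eif4h (chr5:134639476-134639529, minus strand), 74 before one of the starts of Eif5a (chr11:69921431-69921484, minus strand), 43 before Eef2 (chr10:81176564-81176617, plus strand) and 68 before Eif3f (chr7:108934323-108934376, plus strand).
Eif4a1: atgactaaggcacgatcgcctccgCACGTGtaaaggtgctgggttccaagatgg
Eif4e: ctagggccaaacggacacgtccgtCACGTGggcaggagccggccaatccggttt
Eif4g1: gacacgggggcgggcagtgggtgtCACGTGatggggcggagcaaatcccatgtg
Eif4h: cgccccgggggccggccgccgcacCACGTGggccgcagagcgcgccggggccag
Eif5a: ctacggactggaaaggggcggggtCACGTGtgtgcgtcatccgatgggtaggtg
Eef2: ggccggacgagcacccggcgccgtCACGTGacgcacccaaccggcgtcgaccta
Eif3f: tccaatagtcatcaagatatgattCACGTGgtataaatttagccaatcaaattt

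In BKO, too, most of the 66 genes rose by D1, and more fell than rose from D1 to D2. From D0 to D1, 50 genes rose and 7 fell (over all genes, 27.5% and 32.3%), with a median of 0.99. Of these, 48 of the risers and 6 of the fallers were called in CON as well, which is 96.0% of the risers of each genotype. The share of calls common to both genotypes over all genes is not given here, so these shared counts are a description. From D1 to D2, 9 of 65 rose and 37 fell (over all genes, 21.7% and 24.0%), with a median of -0.24, and 35 of the fallers were shared. With the replicate block, which pairs these libraries, 7 rose, as Eif4b and Eif4e2 lost their calls. Eif4b and Eif4e2 were also lost in BKO with TPM, in 1 fit of all 18 libraries and without 5 of the 6 single libraries each. From D0 to D2, 50 rose and 6 fell (over all genes, 27.0% and 30.7%). Eif5a was at 355.5, 307.9 and 313.8 FPKM in BKO at D0 and at 1385, 1448 and 1389 at D1. Eif4a1 made up 43.3% ± 4.5 of its pair with Eif4a2 at D0 and 85.6% ± 0.31 at D1 in BKO (SD, n = 3). Eef1a1 rose by 0.30 at D1 in BKO without a call (limma, adjusted p = 0.053), but was called with a pseudocount of 0.1, the 1 FPKM filter, median-ratio scaling, 1 fit of all 18 libraries, the filter with the block, or without D0 library 3.

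Whether the loss of Zbtb24 changed these genes was asked on each day. At D0, none of the 66 was called, as was none of all 15641 genes (0.0%; limma, adjusted p under 0.05), and none of the 66 had an unadjusted p under 0.05, against 2.0% of all genes. The smallest p-values belonged to Eef1akmt3, Eif3i and Eif2b3, all with a limma adjusted p of 1. Eef1akmt3 was at or below 0.19 FPKM in CON and listed at 0 in all 3 BKO libraries. Eif3i, a subunit of eIF3, was at 99.2, 100.2 and 95.8 FPKM in CON and at 115.7, 100.5 and 108.9 in BKO. The BKO libraries were above all CON libraries for 5 genes and below for none, where 1.92% and 1.94% of all genes were so placed. With the replicate number as a block, which pairs the D0 libraries, no member was called either.

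At D1 again none of the 66 was called, while 15 of all 15104 genes were (0.0993%). The 66 genes leaned towards higher values in BKO: 53 were higher and 13 lower, with a median difference of 0.04, whereas 46.9% of all genes were higher. At D1 the 7 B cell markers summed to 0.457% to 0.496% in CON and 0.397% to 0.415% in BKO. The 7 T cell markers summed to 0.00234% to 0.00279% and 0.00178% to 0.002%. Both sums were without overlap and had no marker at 0, while the other marker lists overlapped. The T cell markers did not move together. Lck, the most abundant, lay between 11.22 and 13.33 FPKM in CON and between 8.24 and 9.31 in BKO. The mean of Cd28 was also lower in BKO, but those of Cd3d, Cd3e, Cd3g, Cd4 and Cd8a were higher. The lower T cell sum in BKO was thus mainly that of Lck. The part of these marker differences in this lean was not tested. An unadjusted p under 0.05 was found for 12 of the 66, where 16.3% of all genes reached it. The BKO libraries lay above all CON libraries for 21 genes, where 8.43% of all genes did, and below them for 1 (Eif3f), where 11.7% did. The 95% interval of the difference lay within 1.2-fold either way for 61 of the 66 genes.

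Eif2b3, the gamma subunit of eIF2B, had the smallest p at D1. It was at 27.7, 29.9 and 27.6 FPKM in CON and at 34.0, 33.0 and 32.3 in BKO, without overlap, a difference of 0.21 with an interval from 0.12 to 0.30. Its limma adjusted p was 0.093, and it ranged from 0.026 to 0.70 over the alternatives, being under 0.05 when genes averaging less than 1 FPKM were left out. At D0 it was at 7.13, 6.74 and 6.12 in CON and at 8.34, 7.18 and 7.71 in BKO, and at D2 at 16.4, 16.0 and 14.4 against 14.9, 14.5 and 15.8. Eif3d, a cap-binding subunit of eIF3, was at 185.1, 193.1 and 194.5 FPKM in CON and at 207.6, 202.3 and 212.7 in BKO at D1 (limma, adjusted p = 0.14). Eif1ax was at 163.6, 165.1 and 158.2 in CON and at 175.1, 175.3 and 170.8 in BKO (limma, adjusted p = 0.15). Both genes were higher in all 3 BKO libraries, by 0.12 and 0.10 on the log2 scale. The summed share of the 66 genes was 3.72% ± 0.04 in CON and 3.80% ± 0.01 in BKO (SD, n = 3; exact permutation p = 0.1).

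At D2 none of the 66 was called and none had an unadjusted p under 0.05, where 7 of all 15210 genes (0.046%) were called and 7.71% had such a p. The genes were split evenly, with 31 higher and 35 lower in BKO. The BKO libraries lay above all CON libraries for none of them and below for 2 (Eif3c and Eif2b4), where 4.89% and 6.24% of all genes did. Eif3c was at 166.8, 168.4 and 163.6 FPKM in CON and at 159.0, 159.6 and 151.5 in BKO (limma, adjusted p = 0.66). Eif2b4 was at 34.8, 31.2 and 31.1 in CON and at 29.8, 30.1 and 29.6 in BKO (limma, adjusted p = 0.68). Eif4e3 was at 8.85, 8.02 and 9.20 in CON and at 9.92, 9.06 and 10.2 in BKO (limma, adjusted p = 0.73). The 95% interval lay within 1.2-fold for 53 of the 66 genes and within 1.5-fold for 65. At D0, with its wider spread, it lay within 1.2-fold for 24 and within 1.5-fold for 61.

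**Figure D5:**
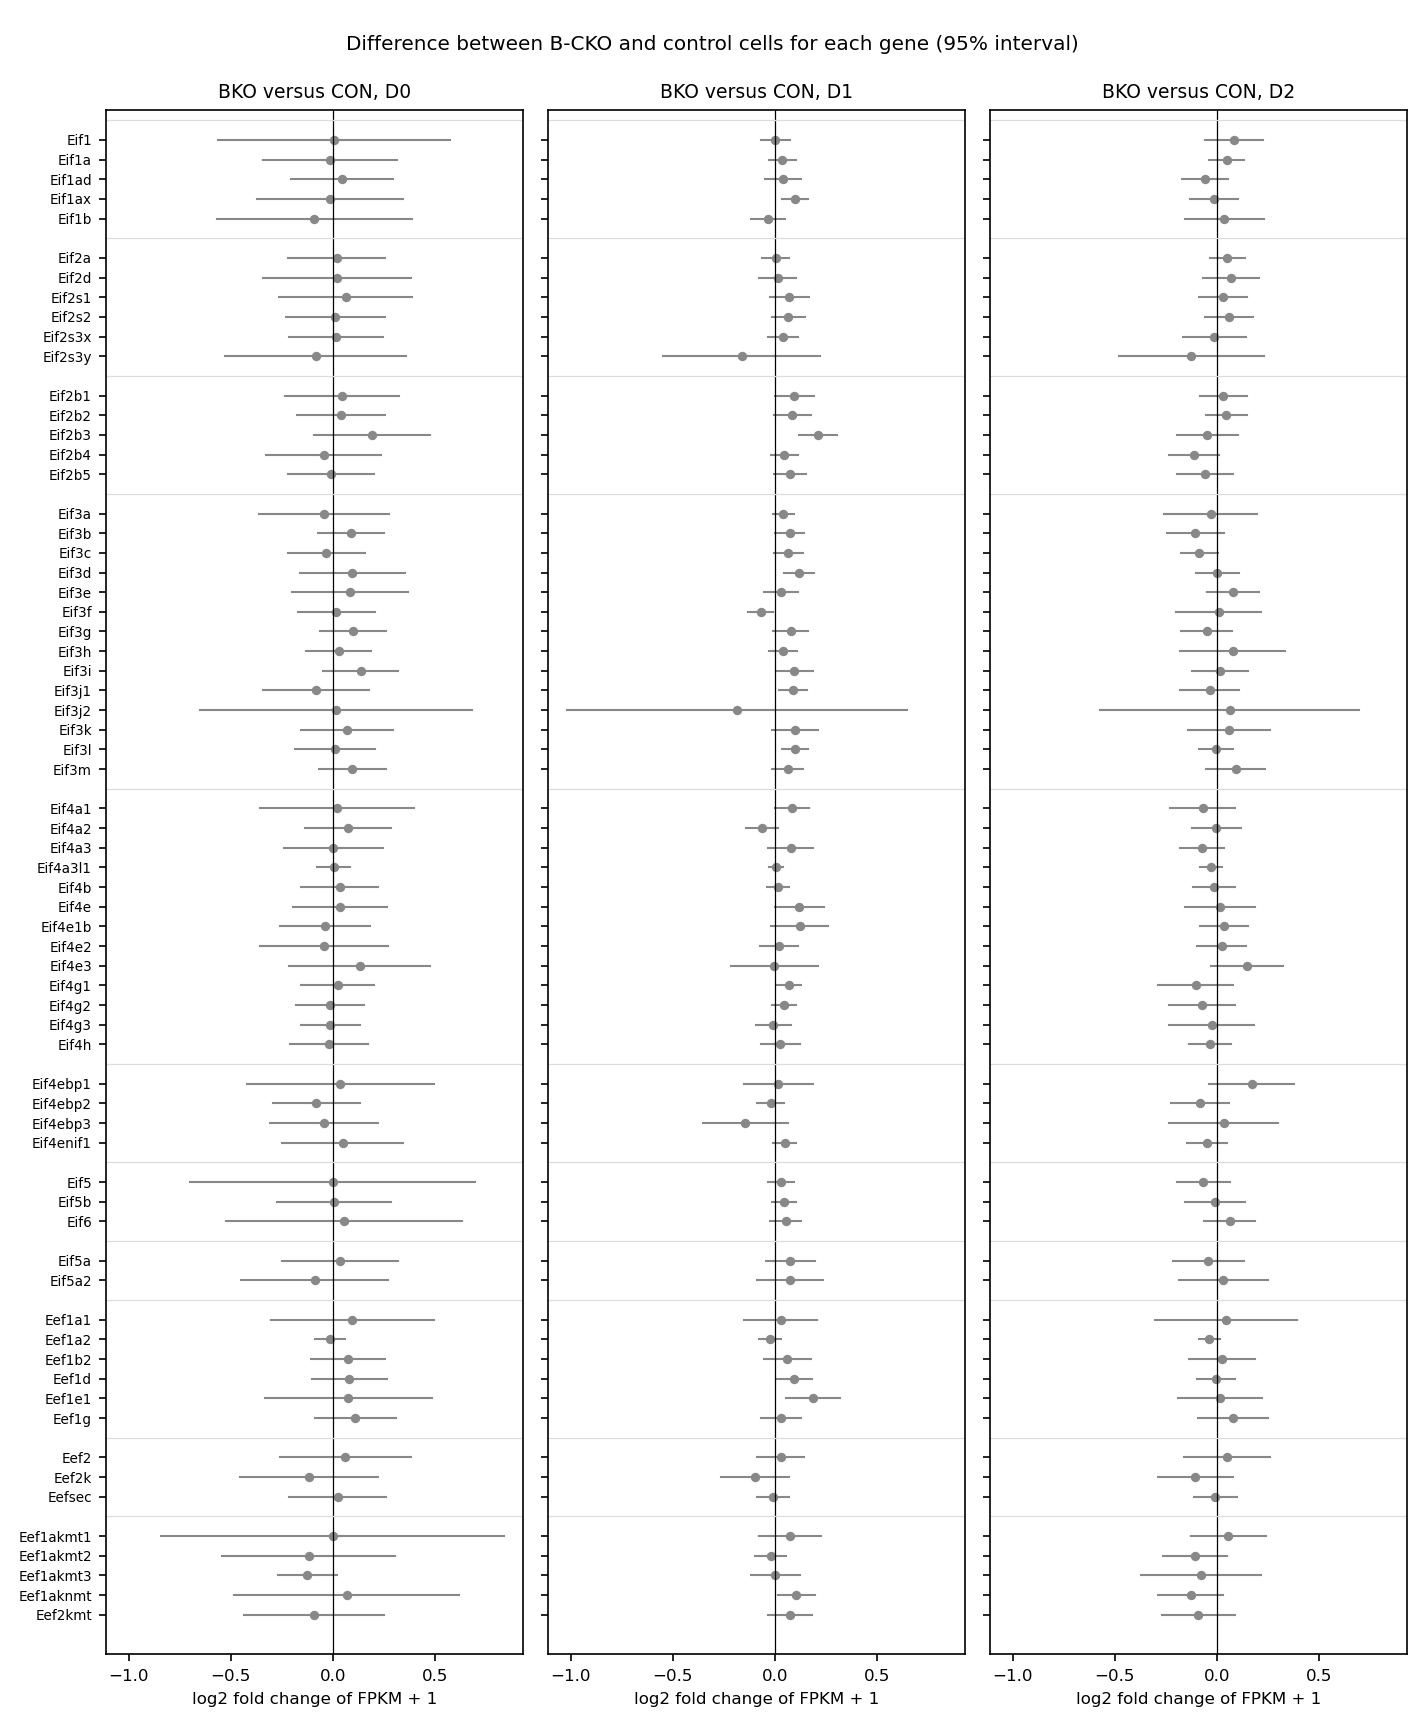
Difference between BKO and CON for each of the 66 genes as log2 fold change of FPKM + 1 with its 95% interval (x axes, on 1 scale), at D0, D1 and D2. No gene is called (all grey; limma, adjusted p under 0.05), intervals are widest at D0, and most points at D1 lie slightly to the right of 0.

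The change over time was then compared between genotypes directly. None of the 66 genes, and none of all genes, was called for the change from D0 to D1 (0.0%), from D1 to D2 (0.0%) or from D0 to D2 (0.0%) (limma, adjusted p under 0.05). Zbtb24 itself was not called, with genotype differences of 1.14 from D0 to D1 and 1.28 from D0 to D2 (limma, adjusted p = 0.58 and 0.24). This contrast can thus miss differences of that size. An unadjusted p under 0.05 was found for 0, 8 and 1 of the 66, against 2.89%, 7.31% and 2.6% of all genes. The 8 all fell further from D1 to D2 in BKO, with Eif2b3 (-0.26), Eif3c (-0.15) and Eef1aknmt (-0.23) having the smallest p-values (limma, adjusted p = 0.55, 0.55 and 0.58). All 8 had a higher mean in BKO at D1, in libraries that this contrast shares with the D1 comparison.

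The libraries of D0 differed from each other more than those of later days. The median SD of the log2 values over the members with at least 1 FPKM was 0.14 in CON and 0.11 in BKO at D0, against 0.04 in both at D1. The spread followed the replicate number in both genotypes. Eif1 was at 717.7 and 719.6 FPKM in the CON and BKO libraries with number 1, at 1035 and 983.7 in number 2 and at 1095 and 1162 in number 3. Eif5 ran from 134.9 and 137.7 in number 1 over 176.6 and 198.2 to 263.7 and 230.1 in number 3, and Eif6 was at 42.8 and 45.2 in number 1 but between 25.1 and 33.2 in the others. What the numbers stand for is not stated, and the part of this shared deviation in the changes from D0 was not tested.

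Other genes of the pathway, 42 in a list of regulators, release factors and modifying enzymes, moved in both directions. At D1 in CON, 21 rose, 11 fell and 10 did not pass the test, with a median of 0.27, where 26.7% of all genes rose and 30.7% fell. At D2 against D1, 6 rose and 26 fell, with a median of -0.25, where 20.1% of all genes rose and 24.8% fell. Gspt1, a release factor, rose by 1.92 at D1, and Dhps and Dohh, which make the hypusine of eIF5A, rose by 0.50 and 0.73. Pdcd4, an inhibitor of eIF4A, fell by 2.33. Ppp1r15a, which helps to remove the phosphate from eIF2 alpha, fell by 4.04, from 350.1, 423.9 and 273.8 FPKM at D0 to 21.2, 19.1 and 19.5 at D1. Of the eIF2 alpha kinases, Eif2ak2 rose by 1.33 and Eif2ak3 fell by 2.13, and the eIF4E kinases Mknk1 and Mknk2 fell by 0.59 and 0.56. All of these had a limma adjusted p under 0.05 in CON. Between genotypes, none of the 42 was called on any day.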

How the data were processed

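The table deposited by the authors gives FPKM to 2 decimals for 16545 NCBI gene IDs. According to the methods, bowtie2 aligned the reads to mm10, and Cufflinks and RSEM gave the abundances. The submitters' processing notes also name BWA and DESeq2. The sequencer is a HiSeq or Novaseq in the methods and an MGI2000 in the labels. Versions, annotation and strand use are not given in the sources used here. No column of the table was left unused. RefSeq on GRCm38.p6 gave symbols for 16512 IDs and none for 33.

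log2(FPKM + 1) was tested with limma 3.58.1 in R 4.3.3 (lmFit, eBayes with a trend), since FPKM are not counts, on the libraries of the groups compared. Genes at 0 in all of them were left out. P-values were two-sided and adjusted by Benjamini-Hochberg over all genes tested, with 0.05 as the threshold. Fold changes are of FPKM + 1, which understates low genes. Single shares were compared by an exact permutation test, two-sided. P-values measure the spread between these libraries. The fits were tested on simulated data, with noise drawn independently for each library. Deviations shared between libraries, such as those at D0, were not part of that simulation. Depth in fragments is unknown. Relative depth came from 167 genes with single-fragment steps.

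The members, role groups and lists were chosen with earlier results of these data known. Values by library are given for the most abundant gene of each role group, its largest called rise and fall at D1 in CON, paralogue sets and the 3 smallest p-values of each genotype comparison. Others are named by their change. Abundance within a group was ranked by the mean FPKM over the 18 libraries. A further gene is not reported here.

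Same-numbered CON and BKO libraries deviated together at D0 (correlations across 9997 genes of 0.85, 0.47 and 0.79), as did D1 and D2 in BKO (0.13, 0.18 and 0.12), with all 3 above 0.1. For D1 between genotypes they were 0.10, 0.20 and 0.091 and for D2 -0.037, 0.22 and 0.23, and no other comparison had all 3 above 0.1. The block was an alternative, as were a pseudocount of 0.1, a mean of at least 1 FPKM, no filter, TPM, median-ratio scaling, 1 fit of all 18 libraries and leaving out each library. The block together with the 1 FPKM filter was added after seeing the data. Python 3.11.15, numpy 2.4.6, pandas 2.3.3, scipy 1.17.1 and matplotlib 3.10.9 were used.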

Additional observations from a re-analysis of the deposited data

How the results depend on the processing

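The counts of members that rose or fell after LPS stayed within 1.5 times under a pseudocount of 0.1, the 1 FPKM filter, no filter, TPM, median-ratio scaling, 1 fit of all libraries and the replicate block. In CON, leaving out 1 library gave 45 to 50 higher and 5 to 8 lower at D1 against D0, 7 to 11 higher and 31 to 35 lower at D2 against D1, and 48 to 51 higher and 3 to 5 lower at D2 against D0. In BKO these were 49 to 53 and 6 to 8, 7 to 11 and 36 to 38, and 47 to 50 and 6. The lowest of the CON falls, 3, came without the D2 library number 3, where Eif4e1b, Eif4ebp3 and Eif5 lost their calls. With the replicate block, CON D1 against D0 had 49 higher and 5 lower. Between genotypes, 1 member was called at D1 with the 1 FPKM filter (Eif2b3) and 2 with that filter and the block (Eif2b3 and Eef1e1), both higher in BKO. No other alternative and no left-out library called a member between genotypes. Of the named values, Eif4ebp2 at D1 against D0 in CON turned to -0.13 with TPM, and Eif3g at D2 against D0 in BKO, at 0.17 with a call, turned to -0.047 with TPM, the only called member to reverse. The causes were not tested. Eif4e2 and Eif4enif1 lost their call at D1 in CON with TPM, without D1 library 2 and without D1 library 3, Eif4e2 also without D0 library 2 and Eif4enif1 also without D1 library 1. Genes under 1 FPKM, such as Eef1a2, Eif4a3l1, Eif4e1b and Eef1akmt3, rest on few fragments.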
